A study of Canis lupus familiaris with 12 samples.

Results

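The genes described here are the ErbB ligands NRG1, AREG, EREG, HBEGF, TGFA and BTC, the ErbB receptors EGFR, ERBB2 and ERBB3, and ERRFI1, an inhibitor of these receptors, in dog kidney epithelial cells grown as 3D cysts or as flat 2D sheets. The members were fixed by name, with earlier results of these data known. Every probe set whose annotation named 1 of them alone was used. This gave 16 probe sets for 10 genes, among 42924 probe sets and 15115 genes tested. Of the 16 probe sets, 3 named NRG1, 3 named TGFA, 2 each named EGFR and ERRFI1, and the other genes had 1 each.

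ErbB receptors are membrane tyrosine kinases that signal in pairs once a ligand is bound. TGFA, AREG, EREG, HBEGF and BTC bind EGFR, and some of them also bind ERBB4, while NRG1 binds ERBB3 and ERBB4. ERBB2 has no known soluble ligand and serves as the partner of the other receptors, and ERBB3 has a kinase of very low activity and signals through its partner. The ligands are made as membrane proteins and are mostly released by proteases at the cell surface. In kidney tubules this pathway is known for its part in epithelial growth and repair.

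The cell line was MDCK II tet-off, a widely used line from dog kidney tubules, and no transgene is named in the labels. The 3D group was 6 arrays of multicellular cysts and the 2D group 6 arrays of flat sheets. All cultures were grown with type I collagen, serum and G418 and were collected on day 8, and each array received RNA pooled from 4 samples. The labels call the arrays biological replicates and do not describe how RNA was chosen for a pool. A p-value here therefore reflects only the variation among pools, which may be technical.

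Levels are given as log2(intensity + 1), and a change as the log2 fold change of 3D over 2D with its standard error (SE). A gene is said to have risen where the limma adjusted p was under 0.05 over all probe sets of the array. A control level was set on each array as the 95th percentile of 59 control probe sets that read bacterial or tag sequences, and it ranged over 5.59 to 5.71 on the 3D arrays and 5.67 to 5.91 on the 2D arrays. The cultures were separated along the first principal component (66.0% of variance), and 3D replicate 2 and 2D replicate 6 lay farthest out on the second, with 9.49%. The sources used here name no batch or scan date. The mean log2 ratio of 5-prime to 3-prime signal of actin and GAPDH controls, a sign of RNA integrity, averaged -0.54 on the 3D arrays (SD 0.17) and -0.91 on the 2D arrays (SD 0.14), a difference with an exact two-sided permutation p of 0.00866 (n = 6 each), and in 3D replicate 2 it was -0.88. Its part in the changes below was not tested. Values with it as a covariate are given where they end the call of a named gene or move a called value by more than 1.5 times. They are also given where they change a list's counts by more than 1 gene. For the markers, ADAM10, ADAM15, RHBDF2, PTPRK and EGR3 no such value is given, and whether their calls hold with it is not shown.

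All 7 measured epithelial markers lay above the control level on every array, and their summed intensity ranged over 34264 to 36744 in 3D, against 29126 to 32595 in 2D. The 7 fibroblast markers summed to 375 to 420 in 3D, against 403 to 474 in 2D, with 2 of 7 above the control level throughout and COL1A2 at or below it on all arrays. The 6 leukocyte markers summed to 528 to 610 in 3D, against 551 to 606 in 2D. All 6 lay above the control level on every 3D array, and 5 of 6 on every 2D array. The 5 endothelial markers summed to 349 to 390.1 in 3D, against 386 to 429 in 2D. Of these, 3 lay above the control level throughout, and PECAM1 lay at or below it on all arrays. Of the epithelial markers 4 rose, CDH1 by 1.02, KRT8 by 0.64, CLDN7 by 0.40 and KRT18 by 0.18, with overlapping groups for CDH1. The 1 that fell was CDH16, by 0.19 on its brightest probe set and lower on all 3, and EPCAM and CLDN3 did not pass. Of the other markers 2 fibroblast, 3 leukocyte and 2 endothelial ones fell and the leukocyte marker CD14 rose by 0.43. Their part in the results was not tested. The leukocyte marker CD3E averaged 7.08 in 3D and 7.27 in 2D, and the endothelial marker CDH5 6.81 and 6.84. Whether such levels reflect expression in these cells was not tested. A level above the control level therefore does not by itself show that a gene is expressed. All cultures were of 1 cell line, and in such bulk samples marker levels do not separate cell number from RNA per cell.

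Of the 10 genes, NRG1, EREG, HBEGF, EGFR and ERRFI1 rose in 3D, 0 fell, and AREG, TGFA, BTC, ERBB2 and ERBB3 did not pass. None of the 10 was lower at an unadjusted limma p under 0.05 either. Over the whole array 42.7% of genes passed, with 19.8% raised and 22.9% lowered. The 3D and 2D values did not overlap for each of the 5 raised genes, and such separation was found for 22.6% of all genes. The median log2 fold change was 0.20 over the 10 genes and -0.05 over all genes. Of the 16 probe sets, 8 rose and 0 fell, while 38.7% of all probe sets passed, 16.7% raised and 22.0% lowered.

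**Figure D1:**
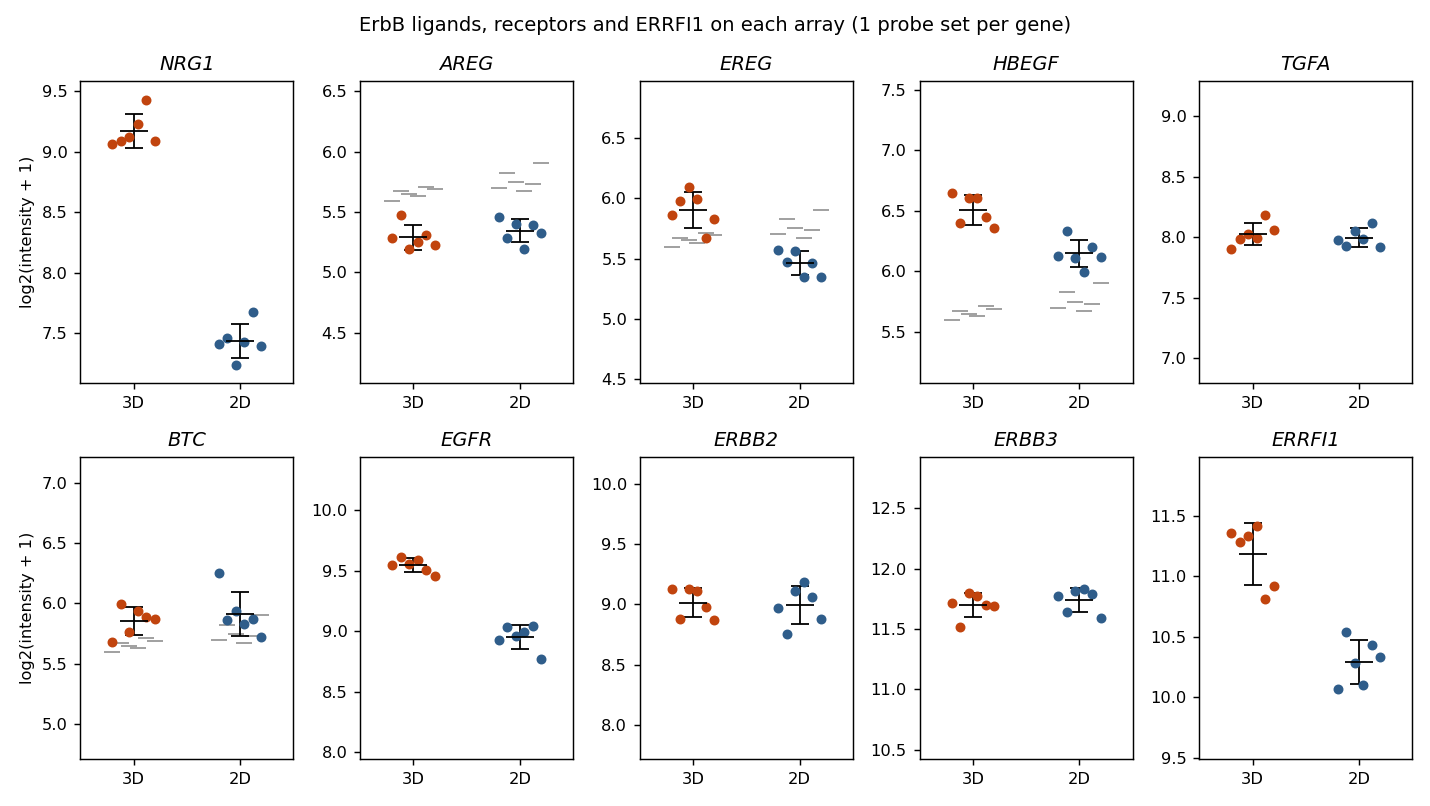
Level of each gene on each array, as log2(intensity + 1), with 3D at the left and 2D at the right of each panel. Points are arrays, black bars the mean ± SD of 6 arrays, and grey dashes the control level of each array where it falls inside the panel; every panel spans the same height on the log2 scale. The 3D and 2D points are apart for NRG1, EREG, HBEGF, EGFR and ERRFI1 and overlap for the other genes, and AREG lies under the control level on all arrays.

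Among the ligands, NRG1, neuregulin 1, changed most. On its brightest probe set NRG1 had a lowest level of 9.06, a median of 9.11 and a highest level of 9.43 on the 3D arrays, against 7.24, 7.42 and 7.68 on the 2D arrays. The groups were more than 1 log2 unit apart at their nearest values, and replicate 5 was highest in both groups. NRG1 averaged 9.17 ± 0.14 in 3D and 7.44 ± 0.14 in 2D (mean ± SD of 6 arrays each), a rise of 1.74 on the log2 scale (SE 0.07, limma adjusted p = 4.72e-11), or 3.33-fold. Of all 15115 genes, 86 rose more.

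The 3 probe sets of NRG1 did not give the same size of change. The second brightest, whose suffix _s_at marks a probe set that can read several transcripts, had levels between 7.40 and 7.64 in 3D, against 6.58 to 6.80 in 2D, and NRG1 rose on it by 0.82 (SE 0.05, limma adjusted p = 6.28e-09). These ranges did not overlap either. The dimmest lay at or below the control level on all 12 arrays, and its measured change was -0.07 (SE 0.06, limma adjusted p = 0.371). Averaged over the 3 probe sets, NRG1 rose by 0.83. RefSeq lists 14 transcripts of dog NRG1 in assembly UU_Cfam_GSD_1.0, and which of them each probe set reads is not given in the sources used here.

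EREG, epiregulin, and AREG, amphiregulin, are EGFR ligands that lie next to each other in the dog genome, with 0 protein-coding genes between them in assembly UU_Cfam_GSD_1.0. EREG had a lowest level of 5.67, a median of 5.92 and a highest level of 6.09 in 3D, against 5.35, 5.47 and 5.57 in 2D. All 2D arrays were at or below their control level and 5 of the 6 3D arrays were above it, the exception being replicate 5. EREG averaged 5.90 ± 0.15 in 3D and 5.46 ± 0.10 in 2D (mean ± SD of 6 arrays each; log2 fold change 0.44, SE 0.07, limma adjusted p = 9.89e-05). Since 2D gave only a bound, EREG was at least 1.10-fold higher in 3D, and the whole signal was close to the control level.

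AREG had a lowest level of 5.19, a median of 5.27 and a highest level of 5.47 in 3D, against 5.19, 5.36 and 5.46 in 2D. All 12 values were at or below the control level, so neither group gives AREG more than a bound. Its limma adjusted p was 0.477, and no direction is read from its values. The signal of the neighbouring genes therefore differed in that EREG was above the control level on 5 arrays and AREG on 0, and whether their changes differed was not tested.

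HBEGF, heparin-binding EGF-like growth factor, is a ligand of EGFR and ERBB4 that is held on heparan sulfate. Its lowest level was 6.36, its median 6.52 and its highest 6.65 in 3D, against 6.00, 6.12 and 6.33 in 2D. The groups were separate by a narrow margin, with 3D replicate 6 the lowest of its group and 2D replicate 2 the highest of its own. HBEGF averaged 6.51 ± 0.12 in 3D and 6.15 ± 0.11 in 2D (mean ± SD of 6 arrays each), and rose by 0.36 (SE 0.07, limma adjusted p = 0.000421), or 1.28-fold. With the RNA ratio as a covariate the call ended, and the value was 0.26 (limma adjusted p = 0.101).

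TGFA, transforming growth factor alpha, and BTC, betacellulin, did not pass on any probe set. On its brightest probe set TGFA had a lowest level of 7.90, a median of 8.01 and a highest of 8.18 in 3D, against 7.92, 7.98 and 8.12 in 2D. The values of both cultures covered nearly the same range, and the 95% interval of the log2 fold change ran from -0.08 to 0.14 (limma adjusted p = 0.678). The other 2 probe sets of TGFA had log2 fold changes of 0.12 and 0.01 (limma adjusted p = 0.229 and 0.909). BTC lay near the control level, at 5.68 to 5.99 in 3D, against 5.72 to 6.25 in 2D, above it on 6 of 6 3D arrays and on 5 of 6 2D arrays. Its interval ran from -0.22 to 0.11 (limma adjusted p = 0.584), and without 2D replicate 1, the highest of the 12 values, its log2 fold change was 0.01.

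**Figure D2:**
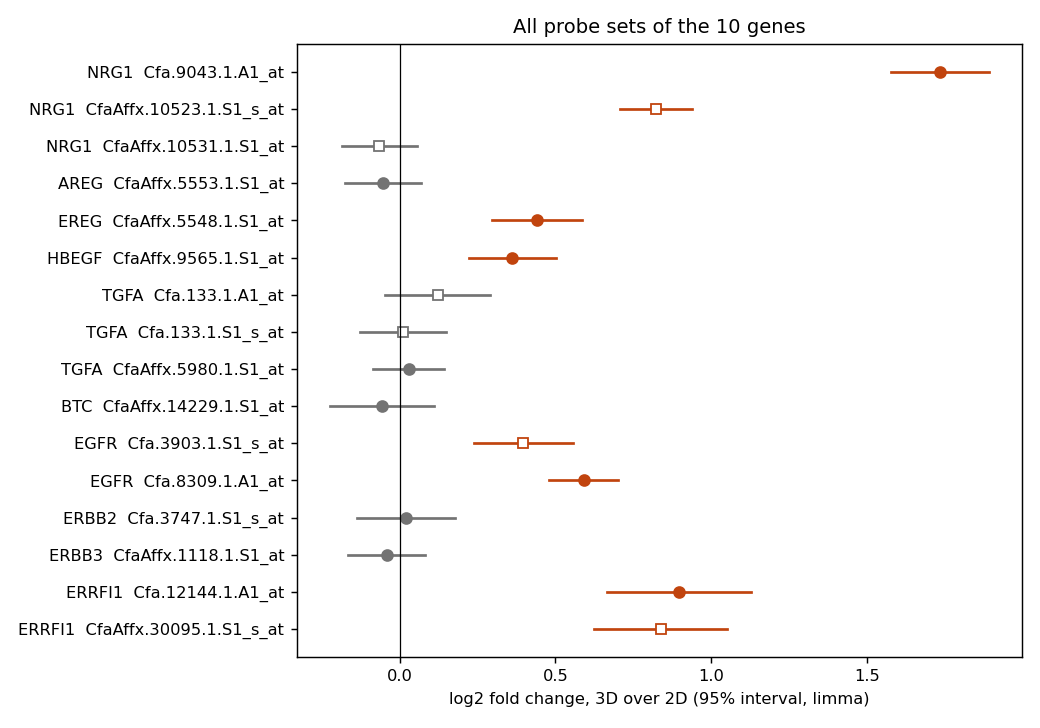
Log2 fold change of 3D over 2D for all 16 probe sets of the 10 genes, with the 95% interval from limma. Filled circles are the brightest probe set of each gene and open squares its other probe sets, orange where the limma adjusted p was under 0.05 and grey where it was not. The probe sets of ERRFI1 lie close together, at 0.90 and 0.84, while those of NRG1 run from -0.07 to 1.74.

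Of the receptors, EGFR rose and neither ERBB2 nor ERBB3 passed. EGFR, the receptor of the EGF-type ligands, had a lowest level of 9.46, a median of 9.55 and a highest level of 9.62 in 3D, against 8.77, 8.98 and 9.05 in 2D. Every 3D array lay above every 2D array, and the 3D arrays differed from each other by less than the 2D arrays did. EGFR averaged 9.55 ± 0.06 in 3D and 8.96 ± 0.10 in 2D (mean ± SD of 6 arrays each), a rise of 0.59 on the log2 scale (SE 0.05, limma adjusted p = 2.03e-07), or 1.51-fold. Its dimmer probe set had levels of 6.56 to 6.88 in 3D, against 6.18 to 6.59 in 2D. EGFR rose by 0.40 on it (SE 0.07, limma adjusted p = 0.000571), with an overlap in which 2D replicate 1 exceeded 3D replicate 2. That probe set no longer passed once the RNA ratio entered the fit (0.17, limma adjusted p = 0.279), while the brighter one did (0.64, limma adjusted p = 5.97e-05).

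ERBB2, the shared partner receptor, had a lowest level of 8.87, a median of 9.04 and a highest level of 9.13 in 3D, against 8.76, 9.02 and 9.19 in 2D. ERBB3, a receptor of NRG1, had a lowest level of 11.52, a median of 11.71 and a highest level of 11.79 in 3D, against 11.59, 11.78 and 11.83 in 2D. The groups overlapped for both genes. The 95% interval of the log2 fold change ran from -0.14 to 0.18 for ERBB2 (limma adjusted p = 0.843) and from -0.17 to 0.08 for ERBB3 (limma adjusted p = 0.593). Changes of the size measured for EGFR lie outside both intervals.

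The changes of the 3 receptors were compared within arrays, over 3 pairs, in a test chosen after their values were seen. The change of EGFR exceeded that of ERBB2 by 0.57 and that of ERBB3 by 0.63 on the log2 scale, with no overlap between the within-array differences of 3D and 2D (exact two-sided permutation p = 0.00216 each, the smallest that 6 against 6 arrays allow, and 0.00325 adjusted over the pairs). Between ERBB2 and ERBB3 the difference was 0.06 (exact two-sided permutation p = 0.206). These differences show unequal change on the arrays and say nothing of the receptors' relative amounts.

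ERRFI1, also known as MIG6, binds the kinase domain of ErbB receptors, restrains it and is itself induced by their signal. On its brightest probe set ERRFI1 had a lowest level of 10.81, a median of 11.31 and a highest level of 11.41 in 3D, against 10.06, 10.30 and 10.54 in 2D. Every 3D array lay above every 2D array, but the 3D arrays spread widely, with replicates 5 and 6 at 10.81 and 10.92 and the other 4 between 11.28 and 11.41. ERRFI1 averaged 11.19 ± 0.26 in 3D and 10.29 ± 0.18 in 2D (mean ± SD of 6 arrays each), and rose by 0.90 (SE 0.11, limma adjusted p = 7.86e-06), or 1.86-fold. On its other probe set the 3D arrays lay between 9.05 and 9.57 and the 2D arrays between 8.26 and 8.74. ERRFI1 rose by 0.84 on it (SE 0.10, limma adjusted p = 6.86e-06), and 3D replicate 5 was again the lowest of its group. Of all genes, 351 rose more than ERRFI1 on its brightest probe set.

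On the brightest probe sets, single 3D arrays were high for some members and low for others. On replicate 5, NRG1 (9.43) and TGFA (8.18) had their highest 3D levels, while EREG (5.67) and ERRFI1 (10.81) had their lowest. On replicate 2, which stood apart on the second principal component, EGFR had its highest level (9.62) and ERBB3 its lowest (11.52). Other probe sets did not all show this order. On the dimmer one of EGFR, replicate 2 was the lowest 3D array (6.56). On the second brightest of NRG1, replicate 5 (7.53) lay inside the 3D range of 7.40 to 7.64. Leaving out 3D replicate 2 kept all 5 raised genes past the threshold, as did leaving out any other single array.

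Across ways of processing, the plot of alternatives shows values of NRG1, EGFR, EREG, HBEGF and ERRFI1 above 0 and of ERBB3 below 0 throughout, whereas TGFA, BTC and ERBB2 lay on both sides of 0. AREG did too, with all of its levels under the control level. For ERBB3 the lowest limma adjusted p among these was 0.268. Its reported value of -0.04 was near the median of all genes, -0.05, so no direction is read from it.

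**Figure D3:**
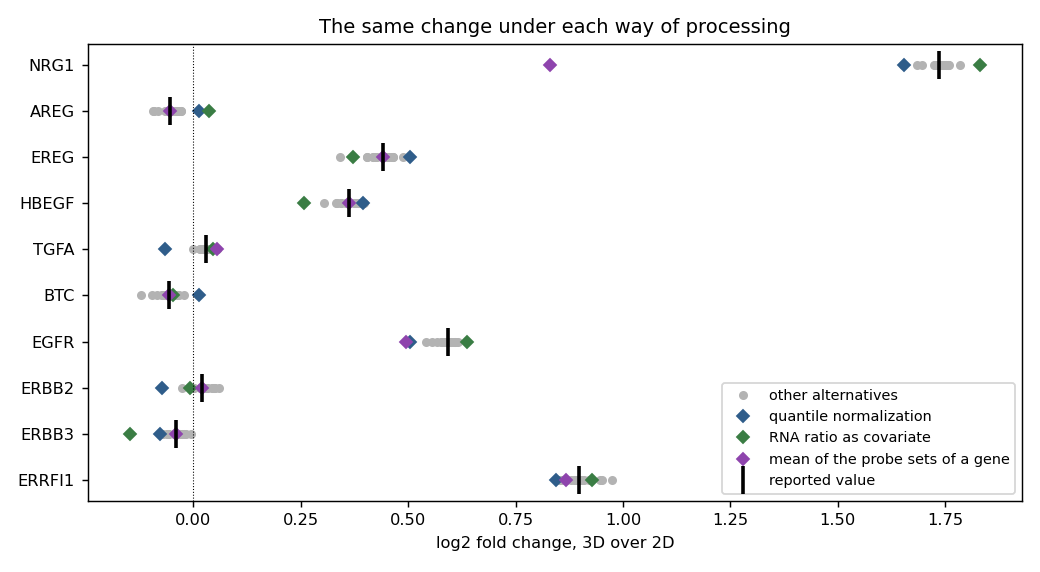
Log2 fold change of 3D over 2D of each gene under each way of processing. Black ticks are the reported values, grey points the other alternatives including each array left out, and coloured diamonds quantile normalization, the RNA ratio as a covariate and the mean of a gene's probe sets. NRG1 lies between 1.65 and 1.83 except for the mean of its 3 probe sets, at 0.83.

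A further 5 lists of genes of the pathway, also chosen with earlier results of these data known, were described by their counts. Of the other ErbB ligands and receptors, 5 of 6 were measured, and 0 rose and 0 fell (limma; 1 higher and 2 lower at an unadjusted p under 0.05), with a median of -0.13. EGF, the founding ligand, averaged 12.27 ± 0.14 in 3D and 12.13 ± 0.07 in 2D (log2 fold change 0.14, SE 0.06, limma adjusted p = 0.0879). ERBB4, a further receptor of NRG1, averaged 9.18 ± 0.08 in 3D and 9.32 ± 0.11 in 2D (difference -0.14, SE 0.06, limma adjusted p = 0.0630). On 2 of its 5 probe sets ERBB4 fell. EPGN lay at or below the control level on all arrays. The counts of this list moved with the processing, up to 3 lowered with array weights. EGF itself passed with the RNA ratio as a covariate, at 0.32 (limma adjusted p = 0.0101), and with the mean of its probe sets, at 0.12 (limma adjusted p = 0.0462), and without 3D replicate 2 it was at 0.088 (limma adjusted p = 0.164).

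Of the genes of ligand release, 7 of 13 measured rose and 2 fell, with a median of 0.13. The 7 included RHBDF2 (0.14), which was above the control level on 2 3D arrays and 0 2D arrays. The shares of all genes were 19.8% raised and 22.9% lowered. TIMP3, an inhibitor of the sheddase ADAM17, rose by 2.27 (SE 0.09, limma adjusted p = 1.26e-11), on all 4 of its probe sets. RHBDL2, a rhomboid protease that cleaves EGF in human cells, rose by 1.42 (SE 0.06, limma adjusted p = 5.59e-11). CD9, a tetraspanin that associates with the HBEGF precursor, rose by 0.52 on its brightest probe set and on 2 of 3, with 0.21 for their mean. BACE1, a protease that cleaves NRG1 in mouse nerve, fell by 0.56 on its brightest probe set and was lower on all 3. The raised genes also held the sheddases ADAM15 (0.22) and ADAM10 (0.13), which were named after their values were seen. Each rose on 1 of its 2 probe sets, with overlapping groups (limma adjusted p = 0.0138 and 0.0434). Proteases thus stood on both sides, and the list had no single direction. The counts were 5 raised and 3 lowered with the RNA ratio as a covariate.

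Of the genes of receptor restraint and turnover, 9 of 24 measured rose and 3 fell, with a median of 0.08. The 3 included PTPRK (-0.21), which was above the control level on 1 3D array and 3 2D arrays. Over all genes 19.8% rose and 22.9% fell. SH3KBP1, an adaptor that links the ubiquitin ligase CBL to the endocytic machinery, rose by 1.15 (SE 0.05, limma adjusted p = 2.51e-11). CBLC, an epithelial ubiquitin ligase of the same family, rose by 0.94, TSC22D3, a glucocorticoid-induced gene, by 0.90, and SPRED1, an inhibitor of the RAS pathway, by 0.60. CBL itself did not pass (-0.02, limma adjusted p = 0.783) and was above the control level on 2 3D arrays and 0 2D arrays. When the RNA ratio was a covariate, 6 of the list rose and 1 fell, and SPRED1 was at 0.32 (limma adjusted p = 0.0187).

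Of the adaptors and effectors, 8 of 27 measured rose and 4 fell, with a median of 0.07, and the share that passed was near that of all genes. The split was 5 raised and 6 lowered with quantile normalization and 10 raised and 2 lowered after centring on the median. NRAS rose by 0.58 (SE 0.17, limma adjusted p = 0.0127) on 1 of its 2 probe sets, with 0.38 for their mean, the GTPase exchange factor VAV3 by 0.32, and the subunits of phosphoinositide 3-kinase PIK3R1 and PIK3CA by 0.32 and 0.30. When the RNA ratio was a covariate 2 rose and 4 fell, and NRAS, VAV3 and PIK3CA no longer passed, with log2 fold changes of -0.12, 0.18 and 0.11 (limma adjusted p = 0.671, 0.256 and 0.636). PIK3CA also did not pass with quantile normalization (0.20, limma adjusted p = 0.0692).

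Of the genes known to be induced by EGF, 15 of 29 measured rose and 4 fell, with a median of 0.39. Among all genes 19.8% rose and 22.9% fell. With the RNA ratio as a covariate 13 of the list rose and 2 fell. The 4 raised most were PTGS2, the inducible cyclooxygenase, by 3.03, CCND1, cyclin D1, by 1.89, DUSP6, a phosphatase of ERK, by 1.72 and KLF4, a transcription factor, by 1.68. KLF4 rose on 1 of its 2 probe sets, with 0.80 for their mean, and its 2D arrays had an SD of 0.61 against 0.23 for its 3D arrays. Many stimuli besides ErbB ligands induce these genes, and ERRFI1 belongs to the same class.

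**Figure D4:**
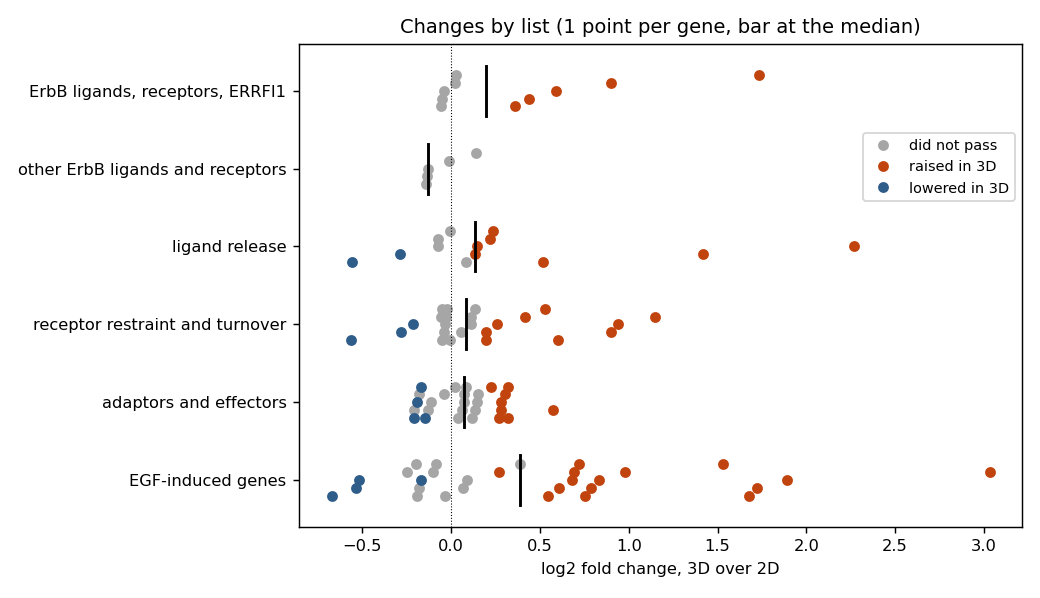
Log2 fold change of 3D over 2D by list, with 1 point per gene from its brightest probe set and a black bar at the median of the list. Orange points rose and blue points fell at a limma adjusted p under 0.05, and grey points did not pass. The medians run from -0.13 for the other ErbB ligands and receptors to 0.39 for the EGF-induced genes.

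The genes most like NRG1 over the 12 arrays, by the root mean square difference of log2 values after centring each gene on its mean, were HYAL1, a hyaluronidase (difference 0.12), RALA, a small GTPase (0.13), and MUC16, a cell surface mucin (0.14). They averaged 10.27 ± 0.09, 10.87 ± 0.13 and 8.18 ± 0.20 in 3D, against 8.50 ± 0.14, 9.18 ± 0.05 and 6.37 ± 0.05 in 2D (mean ± SD of 6 arrays each), and their log2 fold changes were 1.76, 1.69 and 1.81. This measure follows the size of the difference between the cultures above all. No member fell, so no such genes are given for a lowered one.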

How the data were processed

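The authors deposited 1 linear intensity per probe set and array, and per the submitters' processing notes GCRMA was used, without a version. Any later scaling is not given in the sources used here. Control probe sets of the maker (111) entered no test, values were taken as log2(intensity + 1) without further normalization or filter, and 42924 probe sets were fitted by limma 3.58.1 (lmFit, eBayes; R 4.3.3; 3D against 2D, two-sided moderated test, Benjamini-Hochberg adjustment over all probe sets, threshold 0.05). Fold changes on this scale understate changes of dim genes, and precision is limited by how many arrays there are. Genes were named from the platform annotation where it gave 1 symbol, and the probe set with the highest mean over the 12 arrays stood for a gene. All 10 members matched RefSeq genes of UU_Cfam_GSD_1.0 by identifier, which was used for names, transcript counts and neighbours alone. Listed genes with no such probe set were not analysed here.

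Named genes are all members, from each list up to 4 passing genes of largest absolute change (or the 2 brightest where fewer than 2 passed), and the 3 genes most like the member raised most. CBL, EPGN, ADAM10, ADAM15, RHBDF2, PTPRK and all markers named here were named outside this rule, after their values were seen. The same holds for genes of the closing section. Members and lists were chosen with earlier results of these data known. Alternatives were a stricter filter (a log2 value above 6 on at least 6 arrays), quantile normalization, centring on the median, another variance prior, array weights, a replicate block, a pseudocount of 16, the RNA ratio of 4 control pairs as a covariate, arrays left out, a minimum log2 change of 1, and the mean of a gene's probe sets. Plots were made in matplotlib 3.10.9 (Python 3.11.15).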

Additional observations from a re-analysis of the deposited data

Results flagged for a closer look

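On 3D replicate 5 the probe set of TGFA that can read several transcripts had a level of 6.42, far above the other 5 arrays of 3D, which lay between 6.05 and 6.18. Chance gives such a gap in about 1 of 20 groups of arrays, and 16 probe sets were looked at in both groups.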

How the results depend on the processing

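All 5 raised genes passed with each array left out in turn. Under the other alternatives HBEGF did not pass with the RNA ratio, EREG had no value under the stricter filter, and NRG1 alone passed the minimum log2 change of 1. With that minimum the counts were 1 member gene, 1 member probe set, 723 probe sets of the array, 5 EGF-induced genes, 0 adaptors and effectors, 2 genes of ligand release and 1 of restraint and turnover. With the RNA ratio as a covariate 7927 probe sets passed, with 6 adaptors and effectors, 7 genes of restraint and turnover and 1 other ErbB gene. The other ErbB ligands and receptors had 0 genes passing as reported, 1 with quantile normalization, 3 with array weights, 2 without both 2D replicate 6 and 3D replicate 2, 2 with the mean of the probe sets, and 0 to 2 with each array left out. Same-numbered arrays had correlations of deviations between 0.0008 and 0.36, all above 0 and 3 of 6 above 0.1, and 5 of 12 arrays correlated best with their own number. The labels do not say what a number shares, so the arrays were not treated as paired. With the replicate block 5 member genes and 1 other ErbB gene passed, with ERBB4 at -0.14 (limma adjusted p = 0.0430), and 16 EGF-induced genes rose and 7 fell, with EGR1 and JUN among those that passed (limma adjusted p = 0.0393 and 0.00559). Of the values that had passed, NRAS alone turned sign (-0.12 with the RNA ratio). With quantile normalization AREG, under the control level throughout, had 0.014, BTC 0.012, ERBB2 -0.074 and TGFA -0.067. With the RNA ratio AREG had 0.037, ERBB2 -0.0089 and the NRG1 probe set under the control level 0.051. With arrays left out BTC lay between -0.096 and 0.0103, ERBB2 between -0.027 and 0.059, TGFA between -0.0011 and 0.055, and its probe set that can read several transcripts between -0.043 and 0.039. FOS lay between -0.26, without both 2D replicate 6 and 3D replicate 2, and 0.051, without 3D replicate 6. The cause of these shifts was not tested. Signal near the control level limits what AREG, EREG, BTC and HBEGF can show, and their averages in both groups lay below those of the markers CD3E and CDH5.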

Other observations

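The genes given here were named after their values were seen. Of the 4 EGF-induced genes that fell, VEGFA, an angiogenic growth factor, averaged 10.36 ± 0.09 in 3D and 11.04 ± 0.15 in 2D (mean ± SD of 6 arrays each). It fell by 0.67 on the log2 scale (SE 0.07, limma adjusted p = 9.79e-07), on both of its probe sets, and by 0.69 once the RNA ratio entered the fit (limma adjusted p = 0.000359). SPRY1, an inhibitor of receptor tyrosine kinase signalling, fell by 0.54 (limma adjusted p = 0.00508) and the immediate early gene IER2 by 0.52 (limma adjusted p = 0.0187) on 1 of its 2 probe sets, with overlapping groups for both. With the RNA ratio neither passed (limma adjusted p = 0.0532 for SPRY1 and 0.0710 for IER2), nor did IER2 with the mean of its probe sets (0.0598). EGR3 lay at or below the control level on all 12 arrays, and its limma adjusted p was 0.0499.

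The immediate early genes FOS, EGR1 and JUN did not pass, with log2 fold changes of -0.10, -0.19 and -0.25 (limma adjusted p = 0.724, 0.260 and 0.309). With the replicate block EGR1 and JUN passed as lowered (limma adjusted p = 0.0393 and 0.00559) and FOS did not (limma adjusted p = 0.312). FOS varied widely between arrays of a group, with an SD of 0.55 in 3D and 0.38 in 2D. From replicate 1 to replicate 6 it went from 13.35 to 11.96 in 3D and from 13.17 to 12.48 in 2D. JUN went from 10.73 to 9.61 in 3D and from 10.86 to 9.91 in 2D, so replicate 6 lay below replicate 1 in both groups. The full order was not the same, since FOS was highest on replicate 1 in 3D and on replicate 2 (13.30) in 2D. Between same-numbered arrays, which the main fit did not treat as paired, 3D was lower than 2D for EGR1 and JUN at 6 of 6 numbers. For FOS this held at 4 of 6. FOSL1 rose by 0.60 (limma adjusted p = 1.93e-05) and JUNB by 0.98 (limma adjusted p = 0.000212), and JUNB did not pass once the RNA ratio entered (0.64, limma adjusted p = 0.0924).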
